A study of Mus musculus with 11 samples.

Results

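The genes described here are 9 genes of retinoid (vitamin A) storage and metabolism, Lrat, Rdh10, Dhrs3, Rarb, Rxra, Aldh1a1, Aldh1a2, Bco1 and Plin2, followed across the mesenchymal cells of the mouse liver. They were taken by symbol from the 27998 genes of the 10X Chromium tables, and all 9 were found there and in the Smart-seq2 (SS2) tables, where Bco1 carries its older symbol Bcmo1. The mice were C57BL/6 males of 10 to 16 weeks that carry the Pdgfrb-BAC-eGFP reporter, in which eGFP marks the cells that use the Pdgfrb promoter. Cells were sorted as GFP-positive and negative for CD45 and CD102. Isolation protocol "HSC" perfused the liver with enzymes and kept cells that float on a density gradient because of their fat. Isolation protocol "PF" digested minced liver with no gradient. A single 10X library of 3 pooled mice was made for each of 5 groups. With protocol HSC these were Healthy (uninjured) mice, mice 72 h after a single injection of 0.25 µl/g CCl4, and mice given CCl4 for 6 weeks with 2 injections a week and taken 48 h after the last. With protocol PF they were uninjured mice and mice given CCl4 for 6 weeks. SS2 was run on 6 plates of uninjured mice, of mice whose bile duct had been ligated 14 days before (bile duct ligation, BDL) and of mice given CCl4 for 6 weeks. CCl4 is a hepatotoxin that injures the centre of the lobule, and BDL is a cholestatic injury.

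Hepatic stellate cells (HSCs) hold most of the vitamin A of the body as retinyl esters in lipid droplets. Lrat (lecithin retinol acyltransferase) makes the ester, Plin2 coats lipid droplets, and Bco1 cleaves beta-carotene into retinal. Rdh10 oxidises retinol to retinal and Dhrs3 reduces retinal back to retinol, so the pair sets how much retinal can go on to retinoic acid. Aldh1a1 and Aldh1a2 make retinoic acid from retinal, and Rarb and Rxra are nuclear receptors of retinoids that bind DNA as a heterodimer. Rarb and Dhrs3 are themselves textbook targets of retinoic acid. Loss of retinoid droplets is a classic feature of HSC activation.

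Retinoid receptors bind paired 6-letter sites, and the bases before each gene's start were searched for such pairs. The promoters, from RefSeq on GRCm38.p6, were the 250 bases before each annotated start. The 6-letter sites searched were AGGTCA with its variants written AGTTCA or GGGTCA or lastly GGTTCA, in any pair in the same direction, on both strands, with 1, 2 or 5 bases between them. Only Rarb and Bco1 held a pair among the 8 genes with a promoter entry, and these 2 promoters are shown for that reason, with the pair in capitals. The Rarb promoter lies at chr14:16575477-16575726 on the minus strand, and its pair, spaced by 5 bases, runs from 53 to 37 bases before the start.
Rarb: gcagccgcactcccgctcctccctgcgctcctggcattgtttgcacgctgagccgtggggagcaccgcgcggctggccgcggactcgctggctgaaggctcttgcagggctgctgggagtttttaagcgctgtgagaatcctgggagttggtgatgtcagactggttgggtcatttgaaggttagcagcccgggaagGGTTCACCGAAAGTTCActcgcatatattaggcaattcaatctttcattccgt
The Bco1 promoter lies at chr8:117095615-117095864 on the plus strand. Its pair, spaced by 1 base, reads AGGTCAaAGGTCA on the opposite strand and runs from 56 to 44 bases before the start.
Bco1: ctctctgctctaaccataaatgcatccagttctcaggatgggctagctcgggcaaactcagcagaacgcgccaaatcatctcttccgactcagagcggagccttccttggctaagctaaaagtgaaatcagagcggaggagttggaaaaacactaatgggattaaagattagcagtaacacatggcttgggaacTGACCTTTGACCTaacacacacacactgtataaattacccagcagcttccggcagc
Pairs spaced by 1, 2 and 5 bases were found in 0.164%, 0.174% and 0.0883% of 32851 mouse promoters of the same length. The promoters of Lrat, Dhrs3 (3 starts), Rxra (2 starts), Aldh1a1 (2 starts), Aldh1a2 and Plin2 held no such pair. A match is a string of letters and not a measured binding site.

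After filters, the HSC libraries held 6850, 7310 and 5454 cells (uninjured, 72 h and 6 weeks) and the PF libraries 5737 and 5648 cells (uninjured and 6 weeks). Total UMIs (unique transcript molecules) per library ranged from 25962957 to 86661230, and median UMIs per cell from 4299 to 11343.5. Any 2 libraries shared 33 to 74 cell barcodes. Clusters, made without the 9 genes, were called HSC-like, FB-like (fibroblast) or VSMC-like (vascular smooth muscle) from fixed markers. This gave 6850, 7293 and 5433 HSC-like cells in the HSC libraries, and 4066 and 2643 FB-like and 1668 and 3000 VSMC-like cells in the PF libraries. All 6 HSC markers reached 20 CPM (counts per 1000000 UMIs) in HSC-like cells of each condition. Their summed level moved with injury, from 25995 CPM uninjured to 4872 CPM at 72 h and 13434 CPM at 6 weeks. The 7 FB markers summed to 31.1, 300.02 and 534 CPM in the same cells, of which Gpx3 and Dpt alone reached 20 CPM after injury, against 9648 CPM in uninjured FB-like cells. Of 5 mesothelial markers 4 were at 0 in HSC-like cells of every condition, and the other, Wt1, stood at 1.10, 34.2 and 38.2 CPM. A 0 here may hide a few UMIs, since genes found in fewer than 3 cells of a library were set to 0. The 6 hepatocyte markers summed to 60.0, 43.2 and 61.5 CPM, the 6 VSMC markers to 594, 1994 and 995 CPM, and 9 heat shock and immediate early genes to 10522, 5166 and 8854 CPM. The part of these shifts in the levels below was not tested.

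In uninjured liver 6 of the 9 genes, Lrat, Rdh10, Rarb, Rxra, Bco1 and Plin2, were at least 1.5 times higher in HSC-like cells than in both other classes, as were 16% of the 9376 genes that reached 10 CPM in at least 1 class. Dhrs3 was highest in FB-like cells, Aldh1a1 was shared by HSC-like and FB-like cells, and Aldh1a2 was highest in FB-like cells. Each class and condition rests on 1 library, so no test was possible, and each level is given in CPM with an exact 95% Poisson interval that covers counting error only. UMIs count transcripts rather than their length, so that levels can be compared between genes. HSC-like and FB-like cells also differ in isolation protocol and library, which cannot be told apart from the class.

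The storage genes were all highest in HSC-like cells. HSC-like cells held 1253 CPM [1243–1263] of Lrat (chr3:82892579-82903973, minus strand), FB-like cells 17.7 CPM [15.9–19.6] and VSMC-like cells 1.91 CPM [0.956–3.43]. Bco1 (chr8:117095854-117133720, plus strand) stood at 225 CPM, 0.198 CPM and 0.348 CPM in the same order, the last 2 resting on 4 and 2 UMIs. Plin2 (chr4:86648386-86670060, minus strand) stood at 325 CPM, 39.1 CPM and 42.8 CPM. The other classes thus held a low level of Plin2, whereas Bco1 was near 0 there. The share of cells with at least 1 UMI followed the same order for Lrat, 99.3% of HSC-like, 4.70% of FB-like and 0.420% of VSMC-like cells at median depths of 6717.5, 4893 and 3214 UMIs. With every cell thinned to 2000 UMIs the shares were 89.7%, 2.53% and 0.331%.

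The enzymes between retinol and retinal were arranged differently. Rdh10 (chr1:16105774-16133734, plus strand), the retinol oxidiser, was low throughout. HSC-like cells held 16.6 CPM [15.4–17.8], FB-like cells 10.7 CPM [9.31–12.2] and VSMC-like cells 6.61 CPM [4.68–9.08]. The intervals of the FB-like and VSMC-like levels did not overlap. Dhrs3 (chr4:144892827-144928209, plus strand), the retinal reducer, was lowest in HSC-like cells at 62.7 CPM [60.4–65.0], while VSMC-like cells held 92.4 CPM [84.7–101] and FB-like cells 183 CPM [177–189].

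The retinal dehydrogenases differed in the classes that held them. Aldh1a1 (chr19:20492715-20643465, plus strand) reached 199.98 CPM [196–204] among HSC-like cells, 159 CPM [154–165] among FB-like cells and 45.3 CPM [39.9–51.1] among VSMC-like cells. Aldh1a2 (chr9:71215789-71296243, plus strand) reached 15.6 CPM [14.0–17.5] among FB-like cells and 1.74 CPM among VSMC-like cells. HSC-like cells held 0.108 CPM [0.0350–0.251] of it, which is 5 UMIs in 6850 cells. Aldh1a3, the remaining retinal dehydrogenase and not among the 9 genes, was 20.4, 16.4 and 2.96 CPM in HSC-like, FB-like and VSMC-like cells. The receptor Rarb (chr14:16430839-16819156, minus strand) stood at 31.4, 11.9 and 10.8 CPM in HSC-like, FB-like and VSMC-like cells, and Rxra (chr2:27676440-27762957, plus strand) at 96.7, 16.5 and 15.1 CPM. For both receptors the intervals of the FB-like and VSMC-like levels overlapped.

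**Figure D1:**
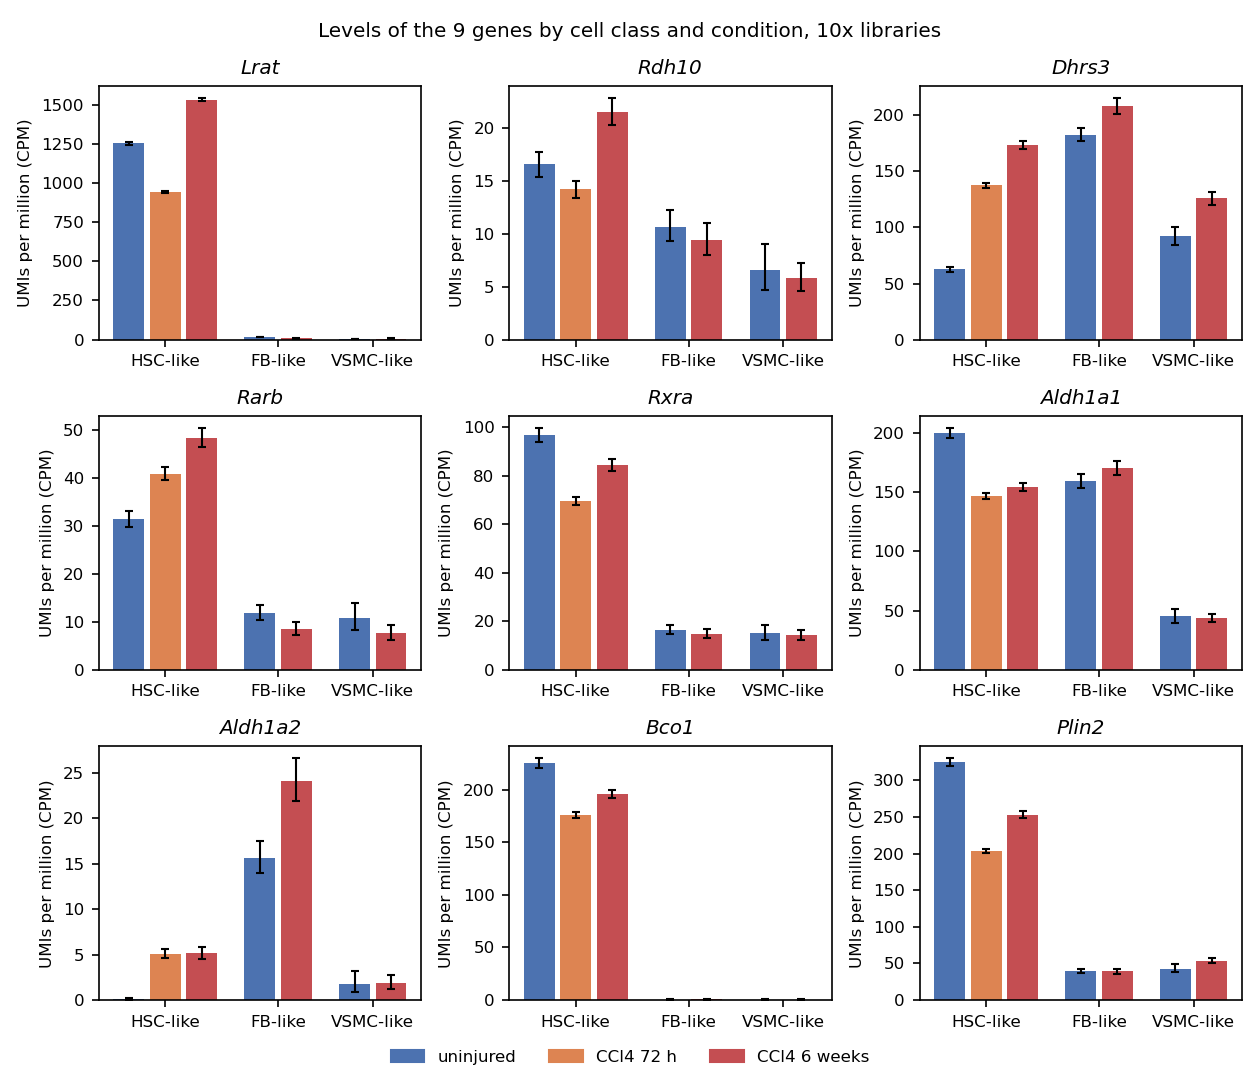
Level of each of the 9 genes in CPM (y axis, starting at 0 and scaled per gene) in HSC-like, FB-like and VSMC-like cells of the 10X libraries. Bars are 1 library each and error bars are exact 95% Poisson intervals; Lrat and Bco1 are nearly absent outside HSC-like cells, and Dhrs3 in HSC-like cells goes from 62.7 to 138 and 173 CPM.

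After CCl4 Lrat was lower at 72 h and higher at 6 weeks, and Dhrs3 was higher at both times. The gradient of protocol HSC selects cells by their fat, so that cells with little fat may be missing from these libraries, and the part of this was not tested. At 72 h, 1 of the 8 genes that reached 10 CPM in either condition was at least 1.5 times higher and 1 was at least 1.5 times lower, where 13.4% and 26.4% of 8385 genes were. At 6 weeks 2 of 8 were higher and 0 lower, where 6.23% and 11.8% of 8133 genes were. The median gene moved by -0.22 on the log2 scale at both times. The log2 TMM factor was -0.13 at 72 h and -0.18 at 6 weeks. TMM scaling subtracts this factor, so that all log2 ratios would be higher by its size.

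Storage genes were lower in CPM at 72 h and less so, or higher, at 6 weeks, while the median gene was also lower at both times. Lrat was 1253 CPM uninjured, 943 CPM [937–950] at 72 h and 1532 CPM [1521–1542] at 6 weeks, 0.753 and 1.22 times the uninjured level. It was detected in 98.5% and 99.5% of HSC-like cells after injury, at median depths of 11348 and 9887 UMIs. With cells thinned to 2000 UMIs it was detected in 89.7% of cells uninjured, 79.2% at 72 h and 91.5% at 6 weeks. Plin2 was 325 CPM, 204 CPM and 253 CPM, so that it was 1.59 times lower at 72 h and 0.78 times the uninjured level at 6 weeks. Under TMM or median-of-ratios scaling the 72 h ratio of 0.63 for Plin2 became 0.69, which no longer passes a 1.5-fold difference. Bco1 was 225 CPM, 176 CPM and 196 CPM. All 3 were thus lowest at 72 h, and none was absent. Of all genes tested at 72 h, 36.8%, 21.8% and 40.2% had a lower ratio than Lrat, Plin2 and Bco1. At 6 weeks these shares were 88.6%, 32.5% and 52.5%, so that Bco1 lay near the median gene.

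Dhrs3 showed the largest difference among the genes above 10 CPM, and Rdh10 was somewhat lower at 72 h and higher at 6 weeks. Dhrs3 was 62.7 CPM uninjured, 138 CPM [135–140] at 72 h and 173 CPM [170–177] at 6 weeks, 2.20 times [2.11–2.29] and 2.76 times [2.65–2.88] higher. Over the 10 alternatives of scaling, filter, cell set and calling rule tried for each, these ratios stayed between 2.16 and 2.43 and between 2.74 and 3.13. Among these, a fold of 2 and no CPM minimum change only the calling rule and cannot move a ratio. At 6 weeks the HSC-like level came close to the 183 CPM of uninjured FB-like cells. With cells thinned to 2000 UMIs, 11.6%, 23.3% and 27.8% of HSC-like cells had a Dhrs3 UMI. Rdh10 was 16.6 CPM, 14.2 CPM and 21.5 CPM in the same order, 0.857 times [0.782–0.939] and 1.30 times [1.18–1.43] the uninjured level. A lower ratio than that of Rdh10 was seen for 49.7% of all genes tested at 72 h and 90.6% at 6 weeks.

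The dehydrogenases moved in opposite ways. Aldh1a1 was 199.98 CPM uninjured, 147 CPM at 72 h and 155 CPM at 6 weeks. Of all genes tested, 34.4% at 72 h and 31.2% at 6 weeks had a lower ratio than Aldh1a1. Aldh1a2 went from 5 UMIs to 439 UMIs at 72 h and 267 UMIs at 6 weeks, or from 0.108 CPM to 5.08 CPM [4.61–5.57] and 5.15 CPM [4.55–5.81]. The ratios of 47.1 [20.03–146] and 47.8 [20.2–148] carry wide counting intervals because of the 5 UMIs, and since Aldh1a2 stayed under 10 CPM it was not counted among the genes above. These UMIs lay in 265 cells at 72 h and 203 cells at 6 weeks, of which 97.0% and 100% also held Lrat, against 98.5% and 99.5% of all HSC-like cells. Lrat was 598 and 1320 CPM in these cells, against 943 and 1532 CPM in all HSC-like cells. Their summed HSC markers were 2795 and 10464 CPM, against 4872 and 13434 CPM. Doublets were called for 6.79% and 7.39% of these cells, against 5.85% and 4.38% of all HSC-like cells. Their summed FB markers were 342 and 797 CPM, against 300.02 and 534 CPM in all HSC-like cells. When clusters were made at a finer resolution of 1.2, 166 cells of the 72 h library fell in a cluster named FB-like and led by Saa3 and Lcn2. Over 10 alternatives the Aldh1a2 ratio ranged from 24.9 to 52.1 at 72 h and from 27.3 to 54.1 at 6 weeks. These alternatives included doublets left out and clusters at a resolution of 1.2, and also the calling rules that cannot move a ratio. The part of doublets, of FB RNA or of such cells in these UMIs was not otherwise tested.

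The receptors differed from each other. Rarb was 31.4 CPM uninjured, 40.9 CPM at 72 h and 48.4 CPM at 6 weeks, 1.30 and 1.54 times higher, and the second ratio was 1.475 when cells were thinned to 2000 UMIs. Rxra was 96.7 CPM, 69.5 CPM and 84.3 CPM, at 0.719 and 0.871 times its uninjured level. Of all genes tested, 32.7% at 72 h and 52.9% at 6 weeks had a lower ratio than Rxra. Rarb and Dhrs3 thus had the only ratios over 1.5 at 6 weeks among the 8 genes.

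**Figure D2:**
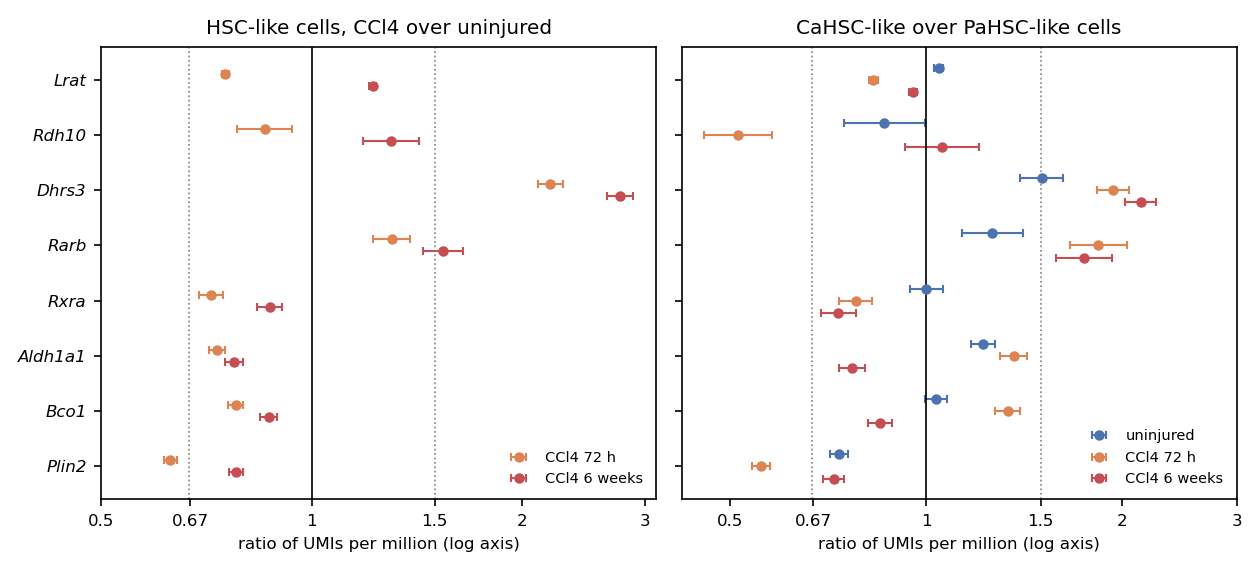
Ratios of CPM (x axis, log scale) for 8 of the genes, in HSC-like cells after CCl4 over uninjured (left) and in CaHSC-like over PaHSC-like cells (right), without Aldh1a2. Points are ratios between sums of cells of 1 library each, bars are 95% counting intervals and dotted lines mark 1.5-fold; Dhrs3 at 2.20 and 2.76 lies farthest right on the left side.

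HSC-like clusters were nearly specific to a library, so a cluster may stand for its library. In uninjured liver the main clusters differed little, with Lrat between 1185 and 1299 CPM and Dhrs3 between 55.5 and 68.8 CPM. At 72 h they spread apart. Lrat was 626 CPM in cluster 12, which is led by proliferation genes such as Ube2c and Top2a, and 1331 CPM in cluster 14. Plin2 was 156 CPM in cluster 11 and 363 CPM in cluster 14, close to the uninjured level. Median UMIs over all cells of these clusters were 5707 and 10288, and the part of depth was not tested. At 6 weeks Dhrs3 was 234 CPM in cluster 10 and 106 CPM in cluster 13, and Aldh1a2 was 7.997 and 1.60 CPM in the same clusters. Over all 7 clusters of that library Dhrs3 was lowest in cluster 12, at 77.9 CPM, and Aldh1a2 highest in cluster 14, at 9.17 CPM. These clusters held 73 and 72 cells of the library.

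HSCs of the lobule differ between the central vein (CaHSCs) and the portal vein (PaHSCs). HSC-like cells of each library were split in 2 by a score of 52 portal minus 29 central genes chosen by the study on these cells, none of them among the 9 genes. Such a class is a range of a score, and 7.23%, 3.52% and 4.55% of cells lay within 0.1 SD of the boundary in the uninjured, 72 h and 6-week libraries. In uninjured liver Dhrs3 alone passed 1.5-fold, with 73.6 CPM among CaHSC-like cells against 48.9 CPM among PaHSC-like cells. That is 1 of 8 genes higher and 0 lower, against 1.39% and 2.3% of 8058 genes. For CaHSC-like against PaHSC-like cells Plin2 was 280 against 381 CPM, and Lrat was 1277 against 1222 CPM.

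The zonal ratios of Dhrs3 and Rarb lay farther from 1 at both times after injury, as did those of Rxra, Aldh1a1 and Bco1. That of Rdh10 did so at 72 h only, and that of Lrat mainly at 72 h. That of Plin2 did so at 72 h under the split in 2 but not between the top and bottom of 3 equal groups. Over all genes too, larger shares passed 1.5-fold after injury than uninjured, where 1.39% were higher and 2.3% lower. Genes with a lower ratio than Dhrs3 made up 98.6% uninjured, 97.7% at 72 h and 98.5% at 6 weeks. For Rarb these shares were 96.3%, 97.4% and 97.7%. At 72 h, 2 of 8 genes were higher in CaHSC-like cells and 2 were lower, against 5.12% and 6.09% of 7897 genes. Dhrs3 was 153 against 79.0 CPM (1.94 times) and Rarb 45.1 against 24.6 CPM (1.84 times, and 1.26 times uninjured). Rdh10 was 11.9 against 23.1 CPM (1.95 times lower) and Plin2 175 against 314 CPM (1.79 times lower). Between the top and bottom of 3 equal groups by the score the ratio of Plin2 was 0.679, which does not pass 1.5-fold. In uninjured cells the same comparison gave 0.653, which does pass. At 6 weeks 2 of 8 were higher and 0 lower, against 3.98% and 5.65% of 7913 genes. These were again Dhrs3, at 207 against 96.7 CPM (2.14 times), and Rarb, at 55.6 against 31.9 CPM (1.75 times). Plin2 was at 0.720 times the PaHSC-like level at 6 weeks, beside 0.735 uninjured, and Rdh10 at 1.06 times, beside 0.862. Aldh1a2 was 5.50 against 3.47 CPM at 72 h (1.58 times), which turned to 0.491 times between the top and bottom of 3 equal groups, and 6.79 against 1.39 CPM at 6 weeks. Its highest level at 72 h was in the 211 PaHSC-like cells that were also collagen-high by the split described next. Aldh1a2 was 17.2 CPM there, from 50 UMIs in 25 cells, against 5.97 CPM in CaHSC-like collagen-high cells. Lrat was 600 CPM in these 211 cells and 872 CPM in CaHSC-like collagen-high cells. The part of FB-like cells among the 211 was not tested. Aldh1a1 and Bco1 were 1.36 and 1.33 times higher in CaHSC-like cells at 72 h and stood at 0.769 and 0.849 times the PaHSC-like level at 6 weeks. Uninjured, these ratios were 1.22 and 1.03. Rxra was at 0.779 times the PaHSC-like level at 72 h and 0.733 times at 6 weeks, beside 1.00 uninjured. Lrat was 905 against 1090 CPM at 72 h and 1510 against 1581 CPM at 6 weeks. Median UMIs were 12016 in CaHSC-like and 9856 in PaHSC-like cells at 72 h, and 9973 and 9687 at 6 weeks.

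Plin2 and Rdh10 were lower in cells with more collagen at 72 h. HSC-like cells were split in 2 by the geometric mean of Col1a1, Col1a2 and Col3a1, with 6.05% of cells at 72 h and 7.40% at 6 weeks within 0.1 SD of the boundary. Median UMIs were 12617 in collagen-high and 10306 in collagen-low cells at 72 h, and 10077 and 9761 at 6 weeks. At 72 h, 0 of 8 genes were higher and 2 lower in collagen-high cells, against 4.24% and 4.9% of 7881 genes. Rdh10 was 11.2 against 19.3 CPM (1.73 times lower) and Plin2 158 against 279 CPM (1.76 times lower). Of the collagen-high cells 94.96% were CaHSC-like, and within CaHSC-like cells the ratios were 0.708 for Rdh10 and 0.729 for Plin2, which do not pass 1.5-fold. Within PaHSC-like cells, of which 211 were collagen-high, Plin2 was 129 against 349 CPM, which passes. Rdh10 was 18.3 against 24.1 CPM there, which does not. Lrat was 600 against 1185 CPM within PaHSC-like cells and 872 against 1000 CPM within CaHSC-like cells. Over all HSC-like cells, between the top and bottom of 3 equal groups, Dhrs3 passed at 1.57 times. By the split in 2, Dhrs3 was 159 against 136 CPM within CaHSC-like cells and 90.4 against 76.8 CPM within PaHSC-like cells. At 6 weeks 0 of 8 genes passed in either direction, against 2.42% and 2.17% of 7851 genes, and 86.4% of collagen-high cells were CaHSC-like.

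Ordering the cells by collagen into 5 equal groups showed the gradient. At 72 h, from the lowest to the highest group, Plin2 went from 342 to 138 CPM and Lrat from 1156 to 789 CPM, lower at each step. Over the same groups Dhrs3 went from 88.2 to 158 CPM with its highest level of 160 CPM in group 4, and Aldh1a2 from 0.979 to 6.38 CPM. At 6 weeks Plin2 went from 299 to 193 CPM and Bco1 from 224 to 134 CPM, while Dhrs3 went from 125 to 210 CPM and Aldh1a2 from 2.45 to 12.04 CPM. Zone also differed along this order, since most collagen-high cells were CaHSC-like. At 6 weeks Dhrs3 was 211 CPM in collagen-high and 200 CPM in collagen-low CaHSC-like cells. It was 118 and 91.5 CPM in the same order within PaHSC-like cells. The part of zone in these 5 groups was not tested. In uninjured cells the same ordering moved Lrat only from 1214 to 1266 CPM, Plin2 from 335 to 303 CPM and Dhrs3 from 60.8 to 67.7 CPM.

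**Figure D3:**
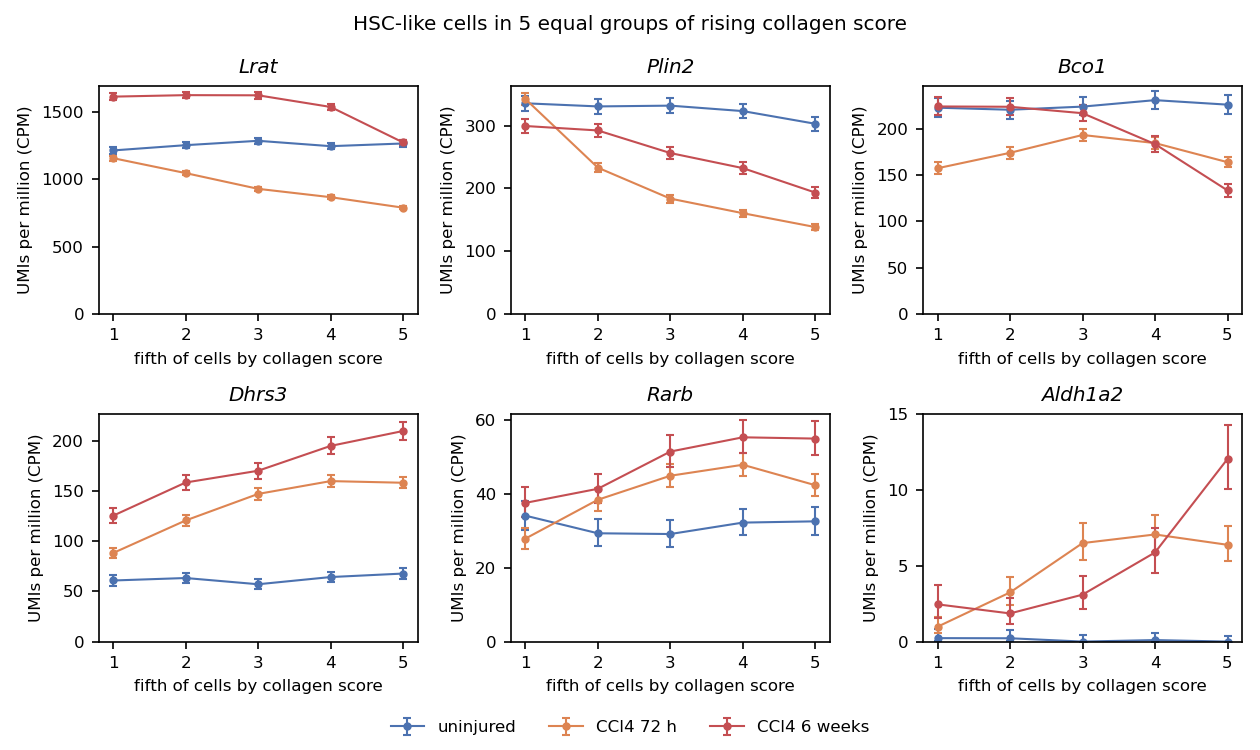
Level of 6 of the genes in CPM (y axis) in HSC-like cells divided into 5 equal groups from lowest (1) to highest (5) collagen score (x axis). Points are sums over the cells of 1 library with exact 95% Poisson intervals; uninjured lines are nearly flat, while Plin2 at 72 h goes from 342 to 138 CPM and Dhrs3 at 6 weeks from 125 to 210 CPM.

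Proliferating cells had less Lrat and Dhrs3. At 72 h 823 of 7293 HSC-like cells had a high score of 5 proliferation genes, with 0.644% of cells within 0.1 SD of the boundary. In them 0 of 8 genes were higher and 2 lower, against 14.2% and 7.26% of 8103 genes. Lrat was 629 against 1003 CPM (1.59 times lower) and Dhrs3 88.3 against 147 CPM (1.66 times lower). Plin2 was 182 against 208 CPM. The proliferation-high cells were deeper, at a median of 14989 UMIs against 11085, and neither gene passed 1.5-fold when the top and bottom of 3 equal groups were compared.

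In FB-like cells after 6 weeks of CCl4, Aldh1a2 was higher and the little Lrat seen was lower. That is 1 of 8 genes each way, against 5.19% higher and 2.01% lower of 8420 genes. Aldh1a2 was 24.1 CPM [21.9–26.6] against 15.6 CPM (1.54 times). FB-like cells of cluster 1 numbered 1707 uninjured and 1702 at 6 weeks, and those of cluster 2 numbered 2359 and 941, and Aldh1a2 was higher within each, at 20.4 against 12.6 CPM in cluster 1 and 30.7 against 17.6 CPM in cluster 2. The 6 VSMC markers summed to 1439 CPM in FB-like cells at 6 weeks against 555 CPM uninjured. The 5 mesothelial markers summed to 83.9 against 75.1 CPM, most of it Wt1 at 74.0 against 70.5 CPM. The others lay between 0.942 and 3.71 CPM at 6 weeks, against 0.297 to 1.88 CPM uninjured, and each was higher at 6 weeks. The part of either list of markers was not tested. Lrat was 8.07 CPM [6.77–9.54] against 17.7 CPM (2.19 times lower). The uninjured Lrat UMIs numbered 357 in 191 cells with at most 17 in a cell, and those at 6 weeks 137 in 83 cells with at most 5. Most lay in FB-like cluster 1, at 40.3 CPM uninjured and 12.1 CPM at 6 weeks, and few in cluster 2, at 3.02 and 0.969 CPM. The 2 PF libraries held 3 and 5 HSC-like cells. Dhrs3 was 208 against 183 CPM, Aldh1a1 170 against 159 CPM and Plin2 39.0 against 39.1 CPM. In VSMC-like cells 0 of the 5 genes that reached 10 CPM passed in either direction, against 7.74% and 2.68% of 8222 genes. The highest of these ratios was that of Dhrs3, 126 against 92.4 CPM (1.36 times). Lrat was 5.89 against 1.91 CPM in VSMC-like cells, under the 10 CPM minimum, and Rarb 7.67 against 10.8 CPM.

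SS2 gave full-length counts in 2065 wells at a median of 445490 reads. Values are reads per 1000000 reads (RPM) summed over the wells of one class in one portion, a portion being the wells of one label on one plate. Nothing in the labels says that portions of one name are separate mice, so that p-values measure only the spread between portions, which may be technical. RPM is not per length, so it was compared between groups and not between genes. HSC-like wells were found in 2 uninjured portions of plate 6, with 154 and 158 wells. Lrat was 3519 and 4311 RPM in these and was seen in 100% of wells. Bco1 was 273 and 330 RPM, Plin2 384.3 and 388 RPM, and Aldh1a2 0 RPM in both. Dhrs3 was 205 and 253 RPM, Aldh1a1 404 and 476 RPM, Rxra 150 and 165 RPM, Rarb 97.3 and 105 RPM and Rdh10 23.5 and 21.4 RPM in the same portions. The 17 FB-like wells of the same plate had Lrat at 95.8 RPM in 64.7% of wells, against 0 to 19.9 RPM in uninjured FB-like portions of plates 1 to 5. Its 34 VSMC-like wells had Lrat at 16.2 RPM in 47.1% of wells, against 0 RPM in uninjured VSMC-like portions of plates 1 to 5. Both classes thus held more Lrat on the plate with the HSC-like wells, and the part of the plate or of the isolation protocol was not tested.

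FB-like wells were compared in plates 1 to 5 between 5 uninjured, 5 BDL and 4 CCl4 portions, with edgeR's quasi-likelihood test and plate as a term. FB-like wells were 28.6% of uninjured, 42.7% of BDL and 18.3% of CCl4 wells. A mesothelial-like class, which was not used, held 0.712%, 0.610% and 3.94% in the same order. Clusters that took no class name held 13.3%, 3.35% and 34.6% in the same order and were left out. Counts with these wells added are given among the alternatives below. Of the 8 genes tested, 0 passed an adjusted p of 0.05 in either injury. Of all 12854 genes 0.0% passed in each direction, with 833 genes (BDL) and 418 genes (CCl4) under an unadjusted p of 0.05, and 490 and 141 genes by DESeq2. The 5 cholangiocyte markers summed to 56.9 to 2080 RPM in the BDL portions of these wells, nearly all of it Spp1, with Krt7, Krt19 and Epcam at 2.48 RPM or less, against 8.28 to 27.4 RPM in uninjured and 2.18 to 11.5 RPM in CCl4 portions, and their part in the BDL values was not tested. In simulated data this design recovered 2% of 4-fold and 0% of 2-fold changes in the BDL comparison, so that differences of that size were not detectable.

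Dhrs3 was the gene whose CCl4 portions separated from the uninjured ones of plates 1 to 5. It was 405, 254, 362, 274 and 407 RPM in the uninjured portions of plates 1 to 5 (340 ± 72.3, SD, n = 5). It was 574, 749, 1009 and 483 RPM in the CCl4 portions (704 ± 231, SD, n = 4). Every CCl4 portion of plates 3 and 5 lay above every uninjured portion of plates 1 to 5, which held for 1 of 8 genes and for 0.825% of 12854 genes, and 0 of 8 lay below, against 1.12%. The log2 fold change was 0.93 (SE 0.42, unadjusted p = 0.0487, adjusted p = 1, edgeR quasi-likelihood test). In BDL it was 779, 324, 400, 215 and 491 RPM (442 ± 214, SD, n = 5), overlapping the uninjured portions, with a log2 fold change of 0.49 (SE 0.35, adjusted p = 0.856, edgeR). The uninjured FB-like portion of plate 6, which was not in the test, was at 462 RPM. In 10X FB-like cells Dhrs3 was 208 CPM after 6 weeks of CCl4 against 183 CPM uninjured (1.14 times), which does not pass 1.5-fold.

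Aldh1a2 was present in few wells and in most injured portions. It was 0, 0, 0, 53.9 and 0.301 RPM in the uninjured portions of plates 1 to 5. In the BDL portions it was 4.34 and 0 RPM on plate 1, 4.23 and 49.5 RPM on plate 2 and 112 RPM on plate 4. In the CCl4 portions it was 17.4 and 2.17 RPM on plate 3 and 73.8 and 38.8 RPM on plate 5. CCl4 and uninjured portions overlapped because of the uninjured portion of plate 4, in which 6 of 49 wells had reads. BDL portions overlapped the uninjured ones also at 0 RPM. The log2 fold change was 5.35 in BDL (SE 2.32, adjusted p = 0.742, edgeR) and 8.14 in CCl4 (SE 2.54, adjusted p = 1, edgeR). DESeq2 gave adjusted p-values of 0.0033 and 0.0017 for the same comparisons, and over 28 alternatives each the adjusted p ranged from 0.0033 to 1 in BDL and from 0.000145 to 1 in CCl4. Over the same 28 alternatives the log2 fold change of Aldh1a2 ranged from -0.0797 to 10.3 in BDL and from 0.847 to 11.9 in CCl4. In BDL the portions of 0 of 8 genes lay all above or all below the uninjured ones, against 1.36% and 1.08% of genes. Aldh1a1 lay between 302 and 640 RPM in uninjured, 224 and 1137 RPM in BDL and 307 and 1178 RPM in CCl4 portions. Lrat was 0 RPM in all 4 CCl4 portions, 0 to 8.41 RPM in BDL and 0 to 19.9 RPM in uninjured portions.

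In VSMC-like wells no change of these genes was detectable. Of the 6 tested, 0 passed in either injury, while 0.00767% of 13040 genes were raised and 0.0% lowered in BDL, and 0.0% passed in CCl4. Unadjusted, 984 genes (BDL) and 469 genes (CCl4) were under 0.05, and DESeq2 called 381 and 185 genes. In simulated data this design recovered 43% of 4-fold and 6% of 2-fold changes in the BDL comparison, so that most changes of 2-fold would be missed. No gene of the 6 had all injured portions above or below all uninjured ones, against 1.37% and 1.76% of genes in BDL and 0.567% and 0.859% in CCl4. Dhrs3 was 145 to 246 RPM in uninjured, 105 to 309 RPM in BDL and 127 to 279 RPM in CCl4 portions. The difference between BDL and CCl4 effects, tested for each of these genes in both classes, gave adjusted p-values of 1 (edgeR).

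**Figure D4:**
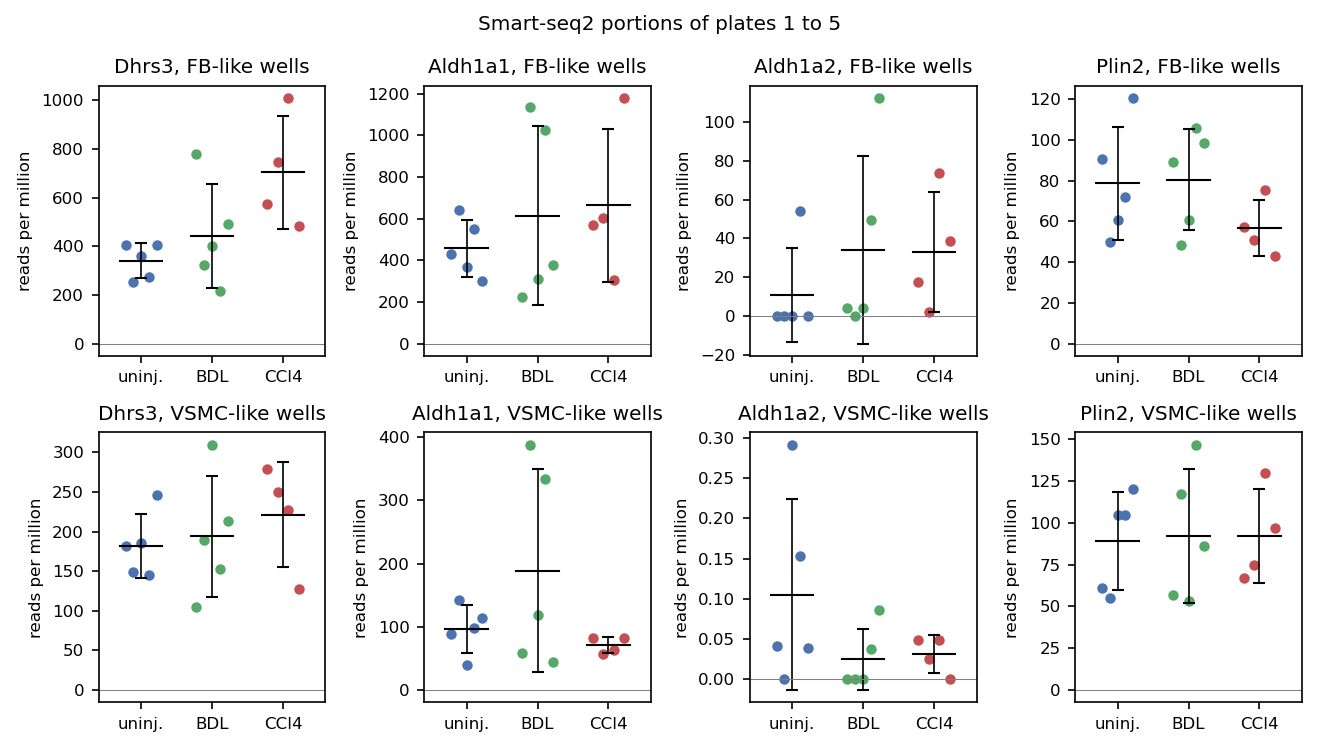
RPM (y axis) of Dhrs3, Aldh1a1, Aldh1a2 and Plin2 in FB-like (top) and VSMC-like (bottom) wells of plates 1 to 5, by condition. Points are portions, lines and bars are mean ± SD (n = 5, 5 and 4); the CCl4 portions of Dhrs3 in FB-like wells, 483 to 1009 RPM, lie above all uninjured ones, 254 to 407 RPM.

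The wider pathway was read from 56 further retinoid genes and 25 lipid droplet genes. In HSC-like cells at 72 h, 1 of the 24 retinoid genes above 10 CPM was higher and 2 were lower, where 13.4% and 26.4% of all genes were, with a median ratio of 0.921 beside 0.860 over all genes. Fabp5, a fatty acid binding protein that carries retinoic acid to a receptor, was 16.3 against 3.23 CPM. Rarres2, which encodes chemerin and is named for its response to retinoids, was 769 against 1695 CPM, and the orphan receptor Nr2f2 253 against 410 CPM. Of 12 droplet genes 1 was higher and 5 lower, with a median ratio of 0.857, close to that over all genes. G0s2, an inhibitor of triglyceride lipase, was 492.8 against 1621 CPM, and the fatty acid activating enzyme Acsl3 4.98 against 15.6 CPM. Mgll, which cleaves monoglycerides, was 60.3 against 102 CPM, and the others were Acsl4 and Pnpla2. Soat1, which esterifies cholesterol, was the higher one at 19.2 against 11.0 CPM. Plin2 and G0s2 were thus both lower at 72 h.

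At 6 weeks 2 of 26 retinoid genes were higher and 1 lower (median ratio 0.904, 0.858 over all genes), and 0 and 2 of 12 droplet genes (median ratio 1.01), where 6.23% of all genes were higher and 11.8% lower. Rdh5, a retinol dehydrogenase, was 15.2 against 7.89 CPM and Fabp5 17.9 against 3.23 CPM. Aldh1a3 was 9.64 against 20.4 CPM. G0s2 was back at 2073 CPM, while Mgll was 49.4 CPM and Acsl3 7.12 CPM. Cyp26a1, which clears retinoic acid, was at 0 UMIs in HSC-like cells of all 3 libraries after filtering. The filter set genes found in fewer than 3 cells of a library to 0, so a few UMIs may have been removed.

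Within HSC-like cells Mgll and Hilpda, a droplet protein that inhibits lipase, followed Plin2 in part. Hilpda was 40.2 against 75.6 CPM in CaHSC-like and PaHSC-like cells uninjured and 38.3 against 73.2 CPM at 72 h. Mgll was 35.1 against 82.1 CPM at 6 weeks. In these zonal comparisons 0 droplet genes were higher. Lower were 1 of 12 uninjured, 2 of 11 at 72 h and 1 of 11 at 6 weeks, against 2.3%, 6.09% and 5.65% of all genes. Of 25 retinoid genes uninjured, 1 was higher (Aldh1a3, 25.4 against 14.1 CPM) and 2 lower (Ttr and Rdh5), against 1.39% and 2.3%. At 72 h 0 of 25 were higher and 1 lower (Rarres2), against 5.12% and 6.09%. Lpl, the lipoprotein lipase, was higher in CaHSC-like cells at 6 weeks at 199 against 121 CPM. It was 1 of 26 retinoid genes, with 2 lower (Ttr and Rdh5), against 3.98% and 5.65%. In collagen-high cells at 72 h, 0 of 26 were higher and 2 lower (Rbp4, 1.11 against 14.6 CPM, and Rarres2), against 4.24% and 4.9%. In proliferation-high cells 1 of 25 was higher (Rdh11, 38.3 against 6.75 CPM) and 1 lower (Rarg), against 14.2% and 7.26%. In FB-like cells 1 of 26 retinoid genes was higher at 6 weeks (Aldh1a3, 28.1 against 16.4 CPM) and 2 of 14 droplet genes (Lipe and Fabp4), and 0 of either list were lower, where 5.19% of all genes were higher and 2.01% lower. In VSMC-like cells 1 of 26 retinoid genes was higher (Fabp5, 39.3 against 12.2 CPM) and 1 lower (Rxrg, 7.24 against 11.0 CPM). Of 15 droplet genes 3 were higher (Pnpla2, Lipe and Fabp4) and 0 lower, where 7.74% of all genes were higher and 2.68% lower. In the SS2 tests 0 genes of either list passed in any comparison (edgeR).

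Across 14 groups of HSC-like cells, each a cluster of 1 library with at least 50 cells, the genes whose log2 level was most like that of Lrat among 2981 genes were Ddr2 (r = 0.945), Gabarapl1 (0.931), Il4ra (0.912), Imp3 (0.903) and Pla2r1 (0.900). Groups of a library share its depth and preparation, so these are descriptions. For Dhrs3 they were Zfos1 (0.953), Ptgis (0.941) and Eef2 (0.935), for Rxra Pde3a (0.952), Fndc3b (0.943) and Dmd (0.936), and for Plin2 Emc4 (0.949), Trappc5 (0.934) and Hmox2 (0.932). For Aldh1a1 and Bco1 the highest were lower, Actn4 (0.830) and Nt5e (0.854). Among the 9 genes the closest pairs were Dhrs3 with Rarb (0.859), Lrat with Rxra (0.812), Lrat with Rdh10 (0.792) and Aldh1a1 with Bco1 (0.774). Dhrs3 and Lrat had little in common (0.147).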

How the data were processed

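The authors ran Cell Ranger 2.1.0 on the 10X reads against mm10 and deposited raw UMI counts for each gene and cell. SS2 reads were mapped by the authors with STAR to mm10 plus eGFP and spike-in sequences, and the raw read counts they deposited for each well came from rpkmforgenes. Both kinds of table were deposited without normalization, and 0 columns were left unused.

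The 10X tables kept genes found in at least 3 cells and cells with at least 300 genes and at most 30% mitochondrial UMIs. SS2 wells beyond 3 median absolute deviations were left out, and 12 control wells were not used. Doublets were kept and were left out as an alternative. Cells were clustered with leidenalg 0.10.2 (Python 3.11.15, 2000 variable genes without the 9 genes and the pathway lists, 10 components, 30 neighbours, resolution 0.8). Clusters were named from fixed markers, and a list was considered only where at least 3 of its markers reached 20 CPM, a rule set after clusters had been looked at. UMIs were summed per class and library and given as CPM, with intervals from the exact Poisson method, and the share of cells holding a UMI was also taken after thinning. Called means 1.5-fold with at least 10 CPM in the higher group. With 1 library per condition no 10X comparison was tested. SS2 wells were summed per portion, with at least 5 wells, and tested with edgeR 4.0.16 (TMM, plate as a term, R 4.3.3) across all genes with Benjamini-Hochberg adjustment. DESeq2 1.42.0 was an alternative. The SS2 tests and the 10X ratios were tried on simulated data. Genes named were the 9 genes, the pathway genes with the largest folds among those called, and those most like each gene. The members and lists were chosen with earlier results of these data known.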

Additional observations from a re-analysis of the deposited data

Results flagged for a closer look

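Of 40 groups of 4 or 5 SS2 portions, 5 held a portion far from the others. Chance gives about 1 in 20 only where values are normally spread. Several of these groups lie mostly near 0 RPM, so that rate may not hold for them. All were FB-like wells and the values are in RPM. Rarb was 61.2 RPM in Peak BDL 2 of plate 1, the nearest other BDL portion being at 15.9 RPM, and that portion held 12 wells. Rdh10 was 177 RPM in Peak BDL 1 of plate 4 with 109 wells, the nearest being 17.5 RPM. Rxra was 163 RPM in Peak BDL 2 of plate 2 with 9 wells, the nearest being 43.8 RPM. Aldh1a2 was 53.9 RPM in the uninjured portion of plate 4 with 49 wells, the nearest being 0.301 RPM. Lrat was 19.9 RPM in the uninjured portion of plate 5 with 32 wells, the nearest being 0.713 RPM. The causes were not tested.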

How the results depend on the processing

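Of 648 values of the 9 genes in the 10X comparisons under alternatives, 511 moved by less than their counting interval or kept their call, 103 moved further, 22 lost and 12 gained a call, and 0 of those called turned direction. The 648 include alternatives that change only the calling rule (a fold of 2 or no CPM minimum), under which a ratio cannot move. A ratio crossed 1 in 22 of the 648, none of them called, the farthest being that of Aldh1a2 between CaHSC-like and PaHSC-like cells at 72 h, 1.58 and 0.491 between the top and bottom of 3 equal groups. Without a CPM minimum VSMC-like cells had 1 called gene in place of 0, and Aldh1a2 in HSC-like cells at 72 h and 6 weeks (47.1 and 47.8) and Bco1 in FB-like cells (2.68) were added. TMM and median-of-ratios scaling each left 1 of 2 called genes in HSC-like cells at 72 h. Thinning to 2000 UMIs left 1 of 2 at 6 weeks, gave 1 in place of 0 in VSMC-like cells and 4 in place of 2 in proliferation-high cells. A fold of 2 left 1 called gene in HSC-like cells at 72 h and at 6 weeks, in FB-like cells and between CaHSC-like and PaHSC-like cells at 6 weeks, and 0 in the uninjured and 72 h zonal comparisons, the 72 h collagen comparison and the proliferation comparison. The top against the bottom of 3 equal groups left Plin2 uncalled in the 72 h zonal comparison (0.679) and called Dhrs3 in the 72 h collagen comparison (1.57). It gave 2 in place of 1 in the uninjured zonal comparison, with Plin2 added at 0.653. It gave 1 in place of 0 for collagen at 6 weeks and 0 in place of 2 for proliferation, where the top group also held proliferation-low cells. An un-logged collagen score gave 1 in place of 2 at 72 h and 2 in place of 0 at 6 weeks, and the split within CaHSC-like cells, chosen after seeing the data, 0 at 72 h. In SS2, FB-like BDL had 0 called genes, and 28 without the plate term, 490 with DESeq2, 266 without the filter, 2 with unnamed clusters added (chosen after seeing the data) and 3 summed by labelled mouse. FB-like CCl4 had 0, and 141, 31 and 4 with DESeq2, without the filter and with unnamed clusters added. VSMC-like BDL had 1, and 32 without the plate term, 381 with DESeq2, 153 without the filter, 0 with all wells of a portion, 0 by labelled mouse, 0 without plate 1, 2, 3 or 5, 4 without plate 4, and 0 to 4 when 1 portion was left out. VSMC-like CCl4 had 0, and 185 with DESeq2 and 19 without the filter. Aldh1a2 in FB-like BDL wells turned to -0.0797 (log2) with all wells of a portion and -0.0596 with unnamed clusters added, where edgeR's adjusted p was 0.988 and 0.995. Mean Lrat in HSC-like SS2 wells was 3915 RPM, and 3519 to 4311 RPM with 1 portion left out. The causes were not tested. No paired analysis was possible because each 10X condition has 1 library and the SS2 portions share no replicate number across conditions beyond their plate, which the fit holds as a term.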

Other observations

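2 genes that clear retinoic acid were chosen here after their values were seen. In FB-like SS2 wells Cyp26a1 was 1.76, 164, 65.4, 0 and 61.3 RPM in the 5 BDL portions of plates 1, 1, 2, 2 and 4, 0 to 0.0416 RPM in the 5 uninjured portions of plates 1 to 5 and 0 RPM in the 4 CCl4 portions. Its reads lay in at most 11.7% of the wells of a portion, and the test of BDL gave an unadjusted p of 0.00408 and an adjusted p of 0.477 (edgeR). Cyp26a1 is among the leading genes of FB-like cluster 8, of whose 136 wells 26, 59 and 42 lay on plates 1, 2 and 4, which hold the BDL portions. The 5 cholangiocyte markers summed to 56.9 to 2080 RPM in the BDL portions, against 8.28 to 27.4 RPM in the uninjured ones, and their part was not tested. Cyp26b1 was 0.610 to 109 RPM in the BDL portions, 0 to 0.158 RPM in the uninjured and 0 to 5.61 RPM in the CCl4 portions (adjusted p = 0.55, edgeR). In the 10X libraries Cyp26a1 was 4.70 CPM in uninjured FB-like cells and 0.648 CPM after 6 weeks of CCl4, from 95 and 11 UMIs.

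HSC-like cells of the 10X libraries without a Lrat UMI numbered 48, 108 and 27 in the uninjured, 72 h and 6-week libraries. They were shallower, with median UMIs of 2732.5, 7745.5 and 4610, and those at 72 h had summed FB markers of 1046 CPM and collagen genes of 15527 CPM, against 300.02 and 8922 CPM in all HSC-like cells.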
